A study of Mus musculus with 6 samples.

Results

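The kinases that switch on NF-κB and their direct activators were followed in mouse acute myeloid leukemia (AML) cells with and without deletion of *Phf6*. The 10 genes were chosen by name from the deposited table of 54532 Ensembl genes. They are *Ikbkb*, *Chuk* and *Ikbkg* of the IκB kinase (IKK) complex, the IKK-related kinases *Ikbke* and *Tbk1*, the NF-κB-inducing kinase *Map3k14*, and the TAK1 kinase *Map3k7* with its adaptors *Tab1*, *Tab2* and *Tab3*. All 10 were found and all 10 had enough reads to be among the 14169 genes tested. The leukemias came from fetal liver cells that were infected with a RUNX1-ETO9a (RE9a) retrovirus carrying GFP and transplanted into male mice. GFP+ cells were sorted from bone marrow. Both groups carried the floxed *Phf6* allele on the single X chromosome of the male donor (*Phf6* fl/y) and the RE9a virus. *VC Phf6,RE9a* cells also carried Vav1-Cre, which is driven by the Vav1 promoter and deletes *Phf6* in blood cells, and *WT Phf6,RE9a* cells carried no Cre. Each group had 3 libraries, numbered 1, 2 and 3 in *WT Phf6,RE9a* (abbreviated WT) and 11, 12 and 13 in *VC Phf6,RE9a* (abbreviated VC). The labels give neither the passage nor the age of the mice behind each library, nor whether the libraries of a group stem from separate leukemias, so p-values measure only the spread between these libraries.

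In resting cells NF-κB dimers are held in the cytoplasm by IκB proteins. In the canonical pathway, receptors for TNF, IL-1 and microbial products build ubiquitin chains that recruit TAK1 through TAB2 or TAB3, and TAK1 then activates the IKK complex, whose IKKβ subunit marks IκB for destruction. In the non-canonical pathway, NIK activates IKKα, which leads to processing of the p100 precursor. TBK1 and IKKε act beside these routes and phosphorylate the interferon regulatory factors IRF3 and IRF7.

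Total counts per library ran from 15675358 to 16817994. *Phf6*, the deleted gene, had 1044, 827 and 1142 counts in WT cells and 388, 314 and 331 in VC cells (log2 of the ratio of VC to WT, or log2FC, -1.66 ± 0.13 standard error, SE, edgeR adjusted p = 9.32e-05). The sorted cells were checked against marker genes. Of 9 mast cell and basophil markers, 8 were lower in VC cells, with a summed level of 16428 to 25362 counts scaled to library size (CPM) in WT and 4919 to 5331 CPM in VC libraries. All 8 neutrophil markers were higher (159 to 488 against 982 to 3716 CPM), as were all 8 erythroid markers (1454 to 2199 against 4731 to 5413 CPM). Of 10 myeloid progenitor markers, 4 were lower and 4 higher, with a median log2FC of 0.53 but a lower sum (2730 to 4087 against 832 to 1120 CPM). The lower ones were *Kit*, *Cd34*, *Fcgr3* and *Myb*, and the higher ones *Mpo*, *Elane*, *Prtn3* and *Ctsg*. *Kit*, also on the mast cell list, made up most of the sum in WT cells, and its mean went from 2420 to 273 CPM. Of 8 monocyte and macrophage markers, 1 was lower and 2 higher (90.1 to 113 against 105 to 178 CPM). B cell markers had a summed level of 2.60 to 7.87 CPM in the WT group and of 25.3 to 70.7 CPM in the VC group, where all 5 tested were higher. T cell markers summed to at most 9.15 CPM in any library, and *Lck*, which was higher, was the only one of 7 with enough reads to be tested. The part of these cell types in the results that follow was not tested, and in bulk RNA fewer cells of a type and less RNA per cell cannot be told apart.

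Of the 10 genes, 3 fell in VC cells and 1 rose. *Ikbkb*, *Map3k7* and *Tab2* were lower and *Tab1* was higher at an adjusted p under 0.05 in edgeR's quasi-likelihood test. This share of 4 in 10 lies close to that of all genes, of which 44.2% passed the same threshold (22.7% lower and 21.5% higher). For 5 of the 10 genes the WT and VC values did not overlap, against 57.3% of all genes tested. The median log2FC of the 10 genes was -0.31, beside 0.013 over all genes tested. TMM scaling, which sets the typical gene to the same level in each library, was used throughout. With library totals in its place, 2 of the 10 were lower and 1 higher, and of all genes 2474 were lower and 4048 higher in place of 3213 and 3047. Summed over the 10 genes, the level was 1011 to 1080 CPM in WT and 859 to 880 CPM in VC libraries. These sums rest on TMM scaling, with factors of 0.917 to 0.991 in WT and 1.04 to 1.07 in VC libraries. They were not computed with library totals. The log2FC was below 0 for 7 of the 10 genes and above 0 for 3. The mean of *Tab2* went from 329 to 226 CPM and that of *Ikbkb* from 174 to 116 CPM. That of *Tab1* went from 57.9 to 100 CPM. None of the 4 called changes reached 2-fold. In the ranking of all tested genes by size of change, 30.3% had a larger change than *Tab1* and 52.2% a larger one than *Map3k7*.

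**Figure D1:**
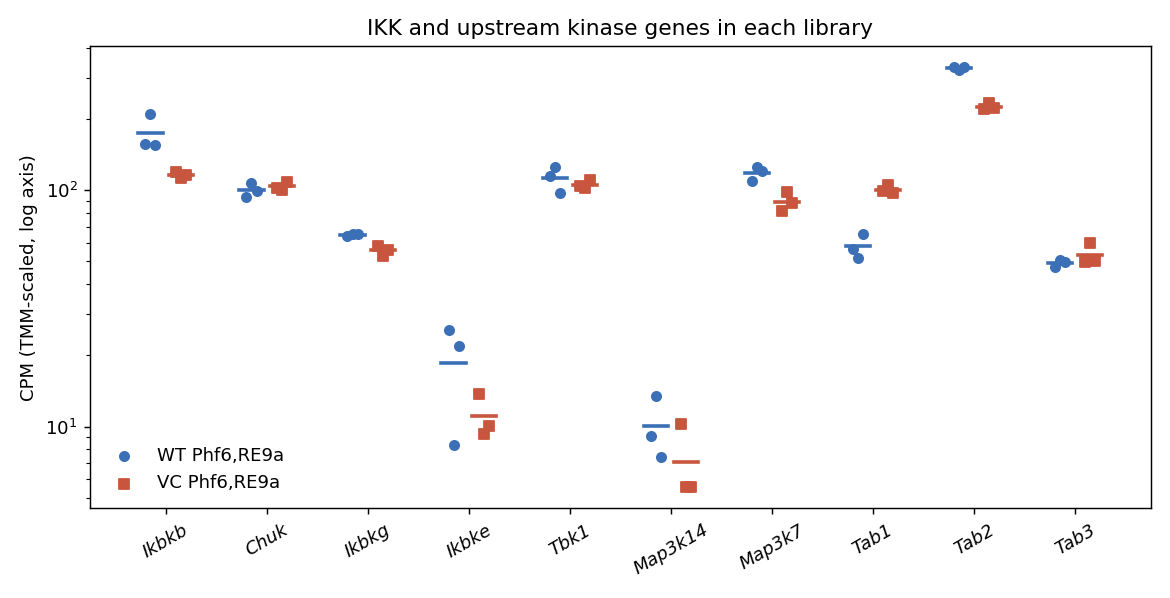
Level of each of the 10 genes in CPM on a log axis, with 1 point per library (circles for WT, squares for VC) and a line at the mean of each group of 3. *Tab1* lies higher and *Ikbkb*, *Ikbkg*, *Map3k7* and *Tab2* lie lower in each VC library than in any WT library, while the points of *Ikbke* and *Map3k14* spread widely within the groups.

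The promoter sequences of the genes that fell are shown as far as RefSeq's table (GRCm38.p6) gave them, since NF-κB can act on genes through κB sites near their start. The table held entries for 8 of the 10 genes, and had none for *Ikbkb* and *Tab1*. The 250 bases before each start were searched on both strands for the 10-base NF-κB consensus, and 1 of the 12 start sites of these genes held a match, that of *Map3k7*. Of all 32851 promoters in the table, 7.25% held one. A match describes the letters only and is no evidence of binding. Of the 250 bases searched, only those before the annotated gene start are shown, 240 for *Map3k7* and 143 for *Tab2*. Another start of *Tab2* lies inside the gene and is not shown. The consensus match is in capitals and fits the consensus on the opposite strand. The stretches before the start of *Map3k7* (chr4:31963857-31964096, plus strand) and of *Tab2* (chr10:7956231-7956373, minus strand) read as follows, 5′ to 3′.
Map3k7: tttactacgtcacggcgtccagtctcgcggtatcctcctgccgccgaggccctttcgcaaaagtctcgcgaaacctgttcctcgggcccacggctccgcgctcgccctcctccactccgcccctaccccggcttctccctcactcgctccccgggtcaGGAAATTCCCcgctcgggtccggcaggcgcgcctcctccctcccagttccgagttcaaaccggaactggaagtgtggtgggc
Tab2: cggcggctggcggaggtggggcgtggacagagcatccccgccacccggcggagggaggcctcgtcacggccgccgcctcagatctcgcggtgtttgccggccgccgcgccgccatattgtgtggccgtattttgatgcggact

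*Ikbkb* and *Chuk* encode the catalytic subunits IKKβ and IKKα. *Ikbkb* (chromosome 8, 22659212 to 22706589 on GRCm38) had 2427, 3091 and 2577 counts in WT cells and 2022, 1938 and 1961 in VC cells. Scaled to library size, these were 158, 209.7 and 156 CPM against 119, 113 and 117 CPM. All 3 VC libraries were lower than any WT library, and replicate 2 of WT stood above the other two of its group. The mean went from 174 ± 30.6 to 116 ± 3.24 CPM (SD, n = 3), a log2FC of -0.58 ± 0.13 (SE) at an edgeR adjusted p = 0.00742. Without the high replicate 2 the log2FC was -0.44 (edgeR adjusted p = 0.00289). *Chuk* (chromosome 19, 44073335 to 44107480) had 94.1, 107 and 98.9 CPM in WT and 102, 101 and 109 CPM in VC libraries. These values overlapped, and the log2FC was 0.054 (95% interval -0.14 to 0.25, edgeR adjusted p = 0.635), which leaves room for a change of up to 1.19-fold upward or to 0.907 of the level. A processed pseudogene of *Chuk* on chromosome 16 had 24 to 52 counts per library, so a small number of reads could have been split between both copies.

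*Ikbkg* encodes NEMO, the subunit that holds the kinases together and binds ubiquitin chains. The gene (chromosome X, 74393290 to 74453854) had 63.8, 65.6 and 65.3 CPM in WT cells and 58.0, 53.0 and 55.9 CPM in VC cells. The groups did not overlap in CPM, though their counts of 967 to 1079 and 909 to 982 did, and the difference missed the threshold (log2FC -0.22, 95% interval -0.41 to -0.039, edgeR adjusted p = 0.0522). It passed with DESeq2 (adjusted p = 0.0474) and with RLE scaling in edgeR (adjusted p = 0.0438), but in no other alternative run. With library totals in place of TMM the log2FC was -0.075 (edgeR adjusted p = 0.517). Without the count filter it was -0.23 (edgeR adjusted p = 0.137). Exons of *Ikbkg* share 418 bases with those of *G6pdx* on the opposite strand, which had 744 to 1109 counts per library. Whether reads were counted by strand is not given in the sources used here, so reads from that stretch cannot be assigned with certainty.

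*Tbk1* and *Ikbke* encode the kinases TBK1 and IKKε of the interferon pathway. *Tbk1* (chromosome 10, 121546455 to 121586787) had 115, 125 and 97.7 CPM in WT and 105, 102 and 110.1 CPM in VC libraries. The latter all lay within the range of the former (log2FC -0.092, 95% interval -0.33 to 0.15, edgeR adjusted p = 0.509). *Ikbke* (chromosome 1, 131254343 to 131279606) had 395, 123 and 363 counts in WT cells, or 25.6, 8.34 and 22.0 CPM. The VC libraries held 233, 160 and 169 counts, or 13.8, 9.32 and 10.04 CPM. Replicate 2 of WT was thus the lowest of all 6 libraries, whereas the other two of its group were the highest. The coefficient of variation among WT libraries was 48.9%, the widest of the 10 genes. The log2FC was -0.76 (standard error 0.39, 95% interval -1.65 to 0.14), which missed the threshold (edgeR adjusted p = 0.149). Without WT replicate 2 it was -1.12 and passed (edgeR adjusted p = 0.00501). With any other single library left out it missed the threshold. The log2FC then ran from -0.94 without VC replicate 11 (edgeR adjusted p = 0.153) to -0.47 without WT replicate 1 (edgeR adjusted p = 0.4).

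*Map3k14* encodes NIK, whose protein level is kept low by TRAF3-dependent degradation until a receptor is engaged. The gene (chromosome 11, 103219762 to 103267472) had 140, 199 and 123 counts in WT and 173, 95 and 93 in VC libraries. In CPM these were 9.09, 13.5 and 7.44 against 10.2, 5.54 and 5.53. The groups overlapped through replicate 11, the highest of the VC libraries (log2FC -0.50, 95% interval -1.26 to 0.27, edgeR adjusted p = 0.259). With that library left out the log2FC was -0.85 (edgeR adjusted p = 0.0791), and without WT replicate 2 it was -0.23 (edgeR adjusted p = 0.605). *Traf3*, which encodes the adaptor named above, had a log2FC of -0.15 ± 0.14 (SE) at an edgeR adjusted p = 0.43.

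*Map3k7* encodes TAK1, which activates IKKβ as well as the kinases upstream of JNK and p38. The gene (chromosome 4, 31964097 to 32023467) had 109, 126 and 121 CPM in WT cells and 81.6, 98.5 and 88.6 CPM in VC cells. No library of one group reached into the range of the other, and the mean went from 119 ± 8.48 to 89.6 ± 8.47 CPM (SD, n = 3). The log2FC was -0.41 ± 0.099 (SE), with an edgeR adjusted p = 0.0129. This call was lost without VC replicate 11, at a log2FC of -0.34 (edgeR adjusted p = 0.062), and with library totals in place of TMM, at -0.26 (edgeR adjusted p = 0.1).

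The adaptors of TAK1 went in different directions. *Tab2* (chromosome 10, 7905653 to 7956230), whose protein binds ubiquitin chains, had 5123, 4749 and 5489 counts in WT and 3735, 4005 and 3762 in VC libraries. The corresponding levels of 333, 322 and 332 CPM against 221, 233 and 224 CPM varied little within the groups, with coefficients of variation of 1.79% and 2.97%. The log2FC was -0.54 ± 0.076 (SE), with an edgeR adjusted p = 0.00113. *Tab3* (chromosome X, 85574022 to 85634469), the closest relative of *Tab2*, had 47.5, 50.7 and 49.6 CPM in WT and 49.7, 59.7 and 50.3 CPM in VC cells. Its groups overlapped (log2FC 0.11, 95% interval -0.12 to 0.34, edgeR adjusted p = 0.403). *Tab1* (chromosome 15, 80133127 to 80161707), whose protein binds the kinase domain of TAK1 and promotes its autophosphorylation, had 869, 764 and 1079 counts in WT cells and 1675, 1804 and 1638 in VC cells. Its level went from 56.4, 51.8 and 65.3 CPM to 98.9, 105 and 97.3 CPM. Each VC library lay above every WT library, with a log2FC of 0.80 ± 0.10 (SE) at an edgeR adjusted p = 0.000774, or 1.74-fold.

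**Figure D2:**
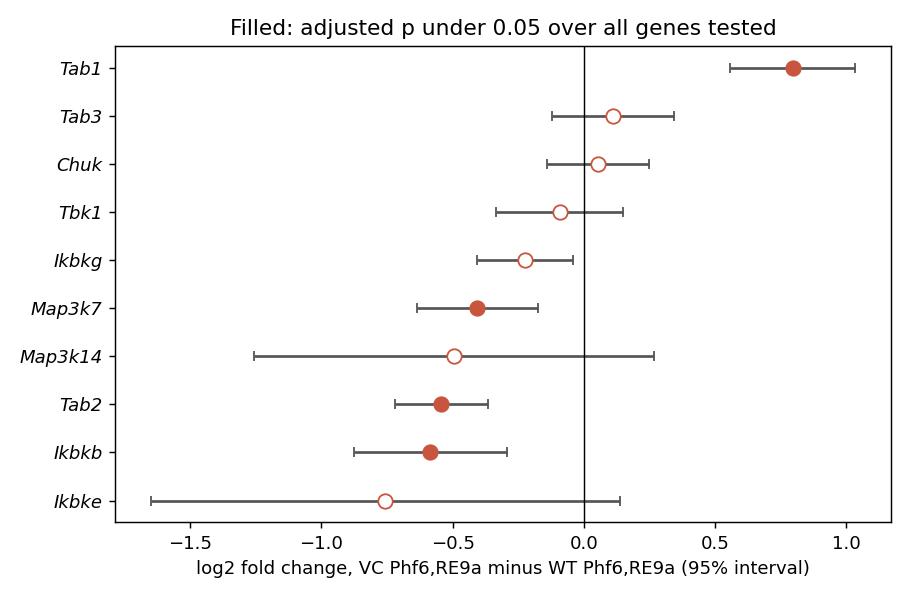
Log2FC of each gene, VC minus WT, with its 95% interval from edgeR's fit, where filled circles passed an adjusted p under 0.05. The interval of *Tab1* lies wholly above 0 and those of *Ikbkb*, *Tab2*, *Map3k7* and *Ikbkg* wholly below, and the widest interval is that of *Ikbke*.

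The balance between genes of one role was compared within each library, as the log2 ratio of counts per kilobase of gene length, which does not depend on how the libraries are scaled. With 3 against 3 libraries, the exact 2-sided permutation test cannot give a p under 0.1. The *Tab1* level relative to that of *Tab2* and *Tab3* summed was 0.274, 0.256 and 0.315 in WT libraries and 0.678, 0.665 and 0.658 in VC libraries. It was 2.38-fold higher in VC (difference of the log2 ratios 1.25, exact permutation p = 0.1, adjusted p = 0.2 over 6 ratios). *Tab2* relative to *Tab3* went from 7.58, 6.87 and 7.25 to 4.80, 4.23 and 4.81, a difference of -0.65 in log2 ratio (exact permutation p = 0.1, adjusted p = 0.2). *Ikbkb* relative to *Chuk* went from 0.447, 0.522 and 0.421 to 0.312, 0.300 and 0.285, a difference of -0.63 (exact permutation p = 0.1, adjusted p = 0.2). In these 3 ratios the groups did not overlap. They hold *Tab1*, *Tab2* and *Ikbkb*, which also differed singly, so they are not independent of those calls. Of all single genes tested, 57.3% did not overlap in CPM, and the share among ratios of other gene pairs was not determined. The regulatory subunit *Ikbkg* relative to *Ikbkb* and *Chuk* summed differed by -0.11 in log2 ratio (exact permutation p = 0.3, adjusted p = 0.45), with overlapping groups. The sign of this ratio depended on gene length, since per length of the longest coding transcript the difference was 0.067 (exact permutation p = 0.8), again with overlap. *Ikbke* relative to *Tbk1* (difference -0.54, exact permutation p = 0.4) and *Map3k14* relative to *Map3k7* (difference -0.11, exact permutation p = 0.9) overlapped as well. With single libraries left out, the last of these ranged from -0.47 to 0.11 and so changed sign. The *Ikbke* ratio was -1.12 without WT replicate 2, -0.25 without WT replicate 1 and -0.24 without WT replicate 3.

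**Figure D3:**
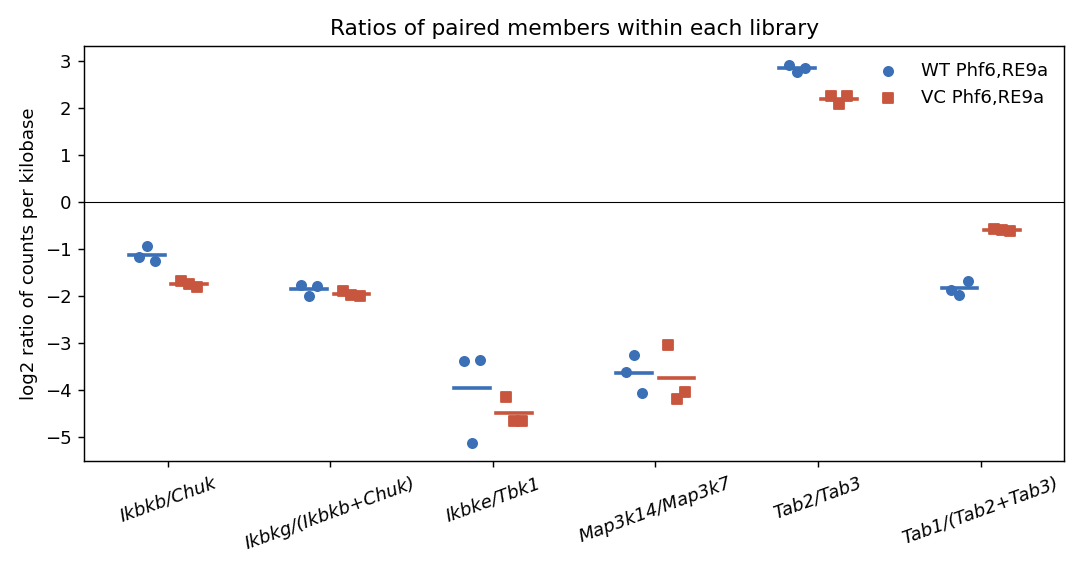
Log2 ratio of counts per kilobase for 6 pairs of genes in each library, with circles for WT, squares for VC and a line at each group's mean. The groups are apart for *Ikbkb*/*Chuk*, *Tab2*/*Tab3* and *Tab1*/(*Tab2*+*Tab3*) and overlap for the other 3.

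Levels of different genes were set side by side in FPKM, the deposited values per kilobase of gene length. In WT cells *Tab2* was highest at 53.3 ± 1.08 FPKM (SD, n = 3), above *Tbk1* at 28.6 ± 3.56 FPKM. *Chuk* (19.5 ± 1.23 FPKM), *Map3k7* (18.4 ± 1.23 FPKM) and *Tab1* (17.1 ± 1.98 FPKM) followed, and each overlapped the next. *Ikbkb*, *Ikbkg* and *Tab3* lay between 7.37 and 9.08 FPKM, without overlap. The lowest were *Ikbke* (2.06 ± 1.01 FPKM) and *Map3k14* (1.52 ± 0.474 FPKM), which overlapped each other. In VC cells *Tab1* stood second at 29.5 ± 1.37 FPKM, above *Tbk1* at 26.7 ± 0.864 FPKM and under *Tab2* at 36.3 ± 1.25 FPKM. *Ikbkb* lay under *Tab3* and *Ikbkg* there, at 6.02 ± 0.151 FPKM.
The order depends in part on the length used, most of all for *Ikbkb*. Its deposited length of 19078 bases is the union of the exons of 14 annotated transcripts and is 4.80 times that of its longest coding transcript, against 1.04 to 2.77 times for the other genes. Per length of the longest coding transcript (GENCODE M21), *Ikbkb* was second in WT cells at 43.6 ± 7.58 FPKM, where it overlapped *Tbk1*, and the fifth in VC cells at 28.9 ± 0.725 FPKM, where it overlapped *Chuk*. On this scale *Tbk1* (34.5 ± 1.12 FPKM) and *Tab1* (33.5 ± 1.56 FPKM) overlapped in VC cells, with *Tbk1* the higher. *Tab2* stayed highest and *Map3k14* lowest on both scales.

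Across the 6 libraries, the genes whose log2 CPM followed that of *Ikbkb* most closely were *Pex13* (Pearson's r = 0.999), *Noct* (r = 0.998) and *Gm43910* (r = 0.998). These are descriptions over 6 libraries that include the group difference. They also include the high WT replicate 2 of *Ikbkb*, at 209.7 CPM against 158 and 156 CPM in the other WT libraries. A correlation with *Ikbkb* of at least 0.95 was seen for 3.72% of all genes tested. Among the 10 genes, the most opposed pair was *Ikbkb* and *Tab1* (r = -0.95) and the closest pair was *Map3k7* and *Tab2* (r = 0.91).

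The genes around these kinases were described from a list of 64 genes for receptors, adaptors, ubiquitin enzymes, IKK targets and parallel kinases, of which 63 were tested. In VC cells 22 passed as lower and 13 as higher in the edgeR fit, or 55.6% beside the 44.2% of all genes, with a median log2FC of -0.12. With library totals in place of TMM the split was 16 lower and 16 higher. The difference between these shares was not tested. The 5 lower genes with the smallest p were *Rel*, *Nfkbie*, *Ripk2*, *Tgfbr1* and *Malt1*. *Rel*, which encodes the c-Rel subunit of NF-κB, went from 145 ± 34.3 to 11.3 ± 4.64 CPM (SD, n = 3), a log2FC of -3.67 ± 0.32 (SE) at an edgeR adjusted p = 0.000145. *Nfkbie*, which encodes the IKK substrate IκBε, fell by 1.14 on the log2 scale (edgeR adjusted p = 0.000159), and *Ripk2*, the kinase that links NOD receptors to TAK1, fell by 2.43 (edgeR adjusted p = 0.000194). *Malt1*, part of the CARD-BCL10-MALT1 complex upstream of IKK, fell by 1.18 (edgeR adjusted p = 0.00146), and the TGF-β receptor gene *Tgfbr1* fell by 2.19 (edgeR adjusted p = 0.000445).
The 5 higher genes with the smallest p were *Tnfrsf13c*, *Mavs*, *Card9*, *Otulin* and *Ltbr*. *Tnfrsf13c*, the receptor for BAFF on B cells, went from 0.324 ± 0.0749 to 7.62 ± 0.471 CPM (SD, n = 3), beside the higher B cell markers given above. *Ltbr*, the lymphotoxin β receptor that signals through NIK, had 8, 59 and 18 counts in WT and 290, 260 and 273 in VC libraries (log2FC 3.12 ± 0.60 SE, edgeR adjusted p = 0.00449). *Mavs*, the mitochondrial adaptor upstream of TBK1, rose from 204 ± 24.2 to 439 ± 4.12 CPM (SD, n = 3; edgeR adjusted p = 0.000191). *Otulin*, which removes linear ubiquitin chains, rose by 0.55 on the log2 scale (edgeR adjusted p = 0.00385), and the adaptor gene *Card9* rose by 1.98 (edgeR adjusted p = 0.00365).

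**Figure D4:**
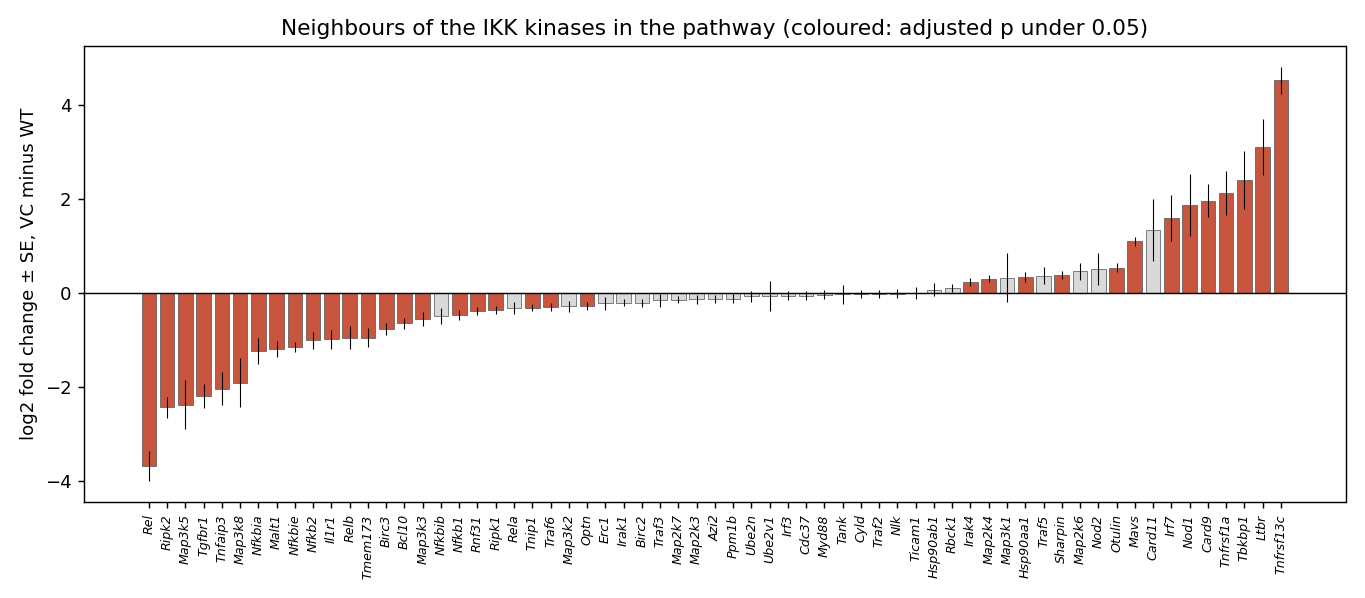
Log2FC ± standard error, VC minus WT, of the 63 tested genes around the IKK kinases, ordered by size and coloured where the adjusted p was under 0.05. *Rel* is at the lower end at -3.67 and *Tnfrsf13c* at the upper end at 4.53, and the uncoloured genes did not pass the threshold.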

How the data were processed

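The authors deposited read counts per Ensembl gene without normalization for the 6 libraries, and FPKM values that equal these counts over the gene length in the table and 1 scaled library size per library. RNA was sequenced as paired-end reads, and the counter, annotation release and strand setting are not given in the sources used here. The submitters' processing notes name Bowtie 0.12.0 and mm8, but 98.33% of the genes found in GENCODE M21 had the same start and end on GRCm38, so coordinates are given as GRCm38. The deposited columns of the authors' own DESeq2 comparison were not used. The counts of genes kept by filterByExpr went into the quasi-likelihood test of edgeR 4.0.16 (R 4.3.3) after TMM scaling, with Benjamini-Hochberg adjustment over 14169 genes and a threshold of 0.05. Standard errors were taken as log2FC over √F. Log2 CPM used a prior count of 2. Ratios were tested in scipy 1.17.1 with an exact permutation test, 2-sided and adjusted over 6 ratios. The alternatives were DESeq2 1.42.0, RLE scaling, 2 other count filters, leaving out each library once, limma 3.58.1 on log2(FPKM + 1), a threshold of 0.01 and, added after the values were seen, library totals without TMM and another gene length. The tests were tried on simulated counts. There only a small set of genes was changed, up or down at random, so the trial does not bear on the choice of scaling. Named beside the 10 genes were *Phf6*, the 3 genes most like *Ikbkb*, and the 5 neighbours with the smallest p in each direction. *Traf3*, *G6pdx*, *Lck* and the myeloid progenitor markers *Cd34*, *Kit*, *Fcgr3*, *Myb*, *Mpo*, *Elane*, *Prtn3* and *Ctsg* were named after their values were seen. The genes and lists were chosen with earlier results of these data known.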

Additional observations from a re-analysis of the deposited data

How the results depend on the processing

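The calls for *Ikbkb*, *Tab2* and *Tab1* held in every alternative run, with log2 fold changes from -0.67 to -0.44, from -0.57 to -0.39 and from 0.71 to 0.94. TMM factors of the 2 groups did not overlap. With library totals in place of TMM the median log2 fold change of all genes was 0.16 instead of 0.013, with 2474 genes lower and 4048 higher against 3213 and 3047. *Map3k7* was then not called (-0.26, adjusted p = 0.1 from edgeR), nor was it at a threshold of 0.01, and *Tbk1*, not called in either, changed sign to 0.060. The cause was not tested. At a threshold of 0.01, 2110 genes were lower and 1690 higher, and the number of higher genes around the kinases fell from 13 to 7. With single libraries left out, that number ran from 7, without *VC Phf6,RE9a* replicate 11, to 12. Leaving out 1 library gave 2 to 4 of the 10 genes as lower and 1 as higher. Per length of the longest coding transcript, *Ikbkg* relative to *Ikbkb* and *Chuk* summed changed sign, from -0.11 to 0.067, and *Tab1* relative to *Tab2* and *Tab3* went from 1.25 to 1.27. For ratios of 1 gene to 1 other, length cancels from the difference between the groups. No paired analysis was possible because the labels give the groups no shared replicate numbers. A p of 0.1 is the smallest that 3 against 3 libraries allow, so the permutation tests say nothing about stability. The genes with the fewest counts, *Ikbke* and *Map3k14*, had the widest intervals.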
